A study of Mus musculus with 28 samples.

Results

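Aim2, Cd180, BC064078, Pip and Gm9732 are 5 genes of 24984 listed in 3 tables of nascent transcription in mouse embryonic stem cells (mESC). They were chosen because their RPKM (reads scaled to gene length and to library size) differed most between genotypes in steady state among well-covered genes. They were selected on the ratio of mean RPKM in the steady-state table, so the steady-state values are given as a description with no test. The question left to the other 2 tables is whether the differences are also found when transcription restarts after a block. The rule of choice did not use those tables, which are tested. The genes were chosen with earlier results of these data known, so the tests are not fully independent of the choice.

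The assay was Bru-seq. Cells are fed 5-bromouridine (BrU), which enters RNA as it is made, and an antibody then pulls out the labelled RNA for sequencing. The cells were wild-type (WT) mESC and an Elongin A null (EloA null, EloA-/-) mESC line, both a gift of 1 laboratory. They were grown on mouse embryonic fibroblast feeders with LIF and the inhibitors PD0325901 and CHIR99021, and were depleted of feeders before labelling. In steady state BrU was given at 2 mM for 10 min. For recovery, elongation was blocked with flavopiridol at 1 µM for 60 min, an inhibitor of the kinase that releases paused Pol II, and after a wash the cells were labelled with BrU for 5 or 10 min. Each of the 6 groups held 2 libraries, 12 in all, of 9857526 to 28547355 reads. With 1 null line, the genotype and any other difference between the lines cannot be told apart. The labels name the WT and null cells CCE28 in 1 place and CJ7 in another, and 1 steady-state library titled EloA null carries a wild-type genotype entry, so groups were taken from the titles. RPKM of Eloa itself was higher in the libraries labelled EloA null, with means of 1.17 and 1.92 in steady state, so nascent RNA over this gene did not show the deletion. The study examined the lines by other assays. It immunoblotted EloA in WT and null mESC, and reports EloA binding signal (CUT&RUN) at a ribosomal RNA gene near IgG background in null cells.

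The coding genes among the 5 are known from immune and gland biology. Aim2 encodes a cytosolic sensor of double-stranded DNA that assembles an inflammasome with the adaptor Pycard and the protease Casp1. Cd180 encodes a leucine-rich repeat receptor related to the toll-like receptors, found on B cells and held at the surface by its partner Ly86. Pip encodes prolactin-induced protein, a secreted glycoprotein of salivary, lacrimal and other exocrine glands. BC064078 and Gm9732 are annotated as long noncoding RNAs, the first of them among the Clec2 and Klrb1 lectin-like receptor genes of the natural killer gene complex.

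All 5 genes are on the plus strand. In GRCm38 the curated transcript of Aim2 spans chr1:173420604-173466040 in 9 exons, and Cd180 spans chr13:102693547-102706631 in 3 exons. BC064078 spans chr6:128992961-129006647 in 3 exons, Pip spans chr6:41847549-41852065 in 4 exons and Gm9732 spans chr14:43275036-43306011 in 4 exons. RPKM gave whole reads when the length of a gene was taken as that of its introns, which make up 83.3% of the span of Cd180 and 94.4% of that of Aim2. The values therefore refer to introns more than to exons.

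Start sites were in the RefSeq promoter table (GRCm38.p6) for Aim2, Cd180 and Pip. The 300 bases from 250 before to 50 after the start are shown to let the promoters of the genes lower and higher in null cells be compared, with every match to 6 searched motifs on either strand in capitals. The TATA box was searched as TATAAA. The box bound by the factor NF-Y was searched as CCAAT, and the box bound by the factor SP1 (GC box) as GGGCGG. The octamer of POU factors was searched as ATGCAAAT, the core of the interferon-stimulated response element as GAAANNGAA, and the element of MYC-type factors (E-box) as CACGTG. In the runs below, capitals in Aim2 mark an NF-Y box on the minus strand and a GC box, capitals in Cd180 mark an NF-Y box on the minus strand, and capitals in Pip mark TATA boxes on the minus and the plus strand.
Aim2, chr1:173420354-173420653, plus strand: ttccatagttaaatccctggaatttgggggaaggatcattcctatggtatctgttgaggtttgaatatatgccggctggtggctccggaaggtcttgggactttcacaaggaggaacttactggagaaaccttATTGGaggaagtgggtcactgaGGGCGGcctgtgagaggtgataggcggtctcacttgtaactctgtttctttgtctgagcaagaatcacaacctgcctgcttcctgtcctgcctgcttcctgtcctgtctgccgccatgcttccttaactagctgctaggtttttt
Cd180, chr13:102693297-102693596, plus strand: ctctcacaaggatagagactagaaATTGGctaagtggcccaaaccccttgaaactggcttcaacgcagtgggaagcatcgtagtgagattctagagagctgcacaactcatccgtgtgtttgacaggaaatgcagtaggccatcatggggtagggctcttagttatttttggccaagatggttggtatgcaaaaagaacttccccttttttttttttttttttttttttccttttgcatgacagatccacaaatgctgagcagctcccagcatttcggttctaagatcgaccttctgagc
Pip, chr6:41847299-41847598, plus strand: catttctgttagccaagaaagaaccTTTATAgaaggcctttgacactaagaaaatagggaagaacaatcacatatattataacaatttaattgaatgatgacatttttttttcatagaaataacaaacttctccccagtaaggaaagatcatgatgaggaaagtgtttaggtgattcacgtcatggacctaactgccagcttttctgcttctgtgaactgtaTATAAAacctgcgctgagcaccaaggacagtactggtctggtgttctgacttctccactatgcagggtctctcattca

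The plus-strand TATA box of Pip begins 28 bases before the start. Of the 32851 promoter windows in the table, 13.6% hold the TATA box, 37.4% hold the NF-Y box and 35.7% hold the GC box on either strand. No match to the interferon-response core, found in 8.56% of windows, the octamer, found in 1.74%, or the E-box, found in 7.15%, lies in these 3 windows. Pip has 2 CpG dinucleotides in its window, and Aim2 and Cd180 have 5 each, against a median of 7 over all windows. A second listed start of Cd180 lies within the same window and is not printed.

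Among 9300 genes with a mean RPKM above 0.5 in a genotype and a mean of at least 100 reads in steady state, the 5 genes ranked 1 (BC064078), 2 (Pip), 3 (Gm9732), 4 (Aim2) and 6 (Cd180) by the size of the log2 ratio. Sval2, the neighbour of Pip, ranked 5 with a log2 ratio of mean RPKM of 1.82 and is not a member. Just below Cd180, at -1.69, came Nynrin at 1.58 and Nfatc4 at 1.57, both on chromosome 14. Genes of lower RPKM such as Adamts3 (2.75) and Gm5860 (2.36) shifted as far, so the 5 genes are the far end of the expressed, well-covered genes and not of all genes.

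Aim2 and Cd180 were the members lower in null cells. In steady state the RPKM of Aim2 was 1.11 in both WT libraries, and 0.316 and 0.296 in the null-labelled libraries. The WT libraries were at least 3.51 times as high as the null libraries, from 1137 and 1329 reads against 314 and 355. At 5-min recovery RPKM of Aim2 was 0.733 and 0.672 in WT and 0.166 and 0.138 in null, and at 10-min recovery it was 1.00 and 0.800 in WT and 0.168 and 0.184 in null. The genotypes did not overlap in any of the 3 tables. The ratio of mean RPKM, WT over null, was 3.62 in steady state, 4.62 at 5-min recovery and 5.11 at 10-min recovery.

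Cd180 followed the same order at lower depth. In steady state its RPKM was 0.979 and 0.923 in WT and 0.293 and 0.295 in null. At 5-min recovery it was 0.409 and 0.348 in WT, from 44 and 48 reads, and 0.0770 and 0.0531 in null, from 10 reads in each library. At 10-min recovery it was 0.897 and 0.653 in WT and 0.161 and 0.157 in null. Every WT library was above every null library of its table, and WT over null was 3.23, 5.82 and 4.87 in the 3 conditions. The 5-min values lie below the RPKM limit of 0.5 in both genotypes, so they were not counted among expressed genes there.

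BC064078, Pip and Gm9732 were the members higher in null cells. The RPKM of BC064078 in steady state was 0.170 and 0.151 in WT, from 52 and 54 reads, and 1.31 and 1.30 in null, from 389 and 464 reads. At 5-min recovery it was 0.0476 and 0.0617 in WT and 0.525 and 0.602 in null. At 10-min recovery it was 0.154 and 0.124 in WT and 1.57 and 1.37 in null. This noncoding gene thus showed the widest gap of the 5 in each table, at 8.13-fold, 10.3-fold and 10.6-fold.

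Gm9732 had the highest read counts of the 5 genes in null cells. Its RPKM in steady state was 0.782 and 0.687 in WT and 3.24 and 2.99 in null. At 5-min recovery it was 0.705 and 0.530 in WT and 3.33 and 3.80 in null, and at 10-min recovery it was 1.27 and 1.08 in WT and 5.47 and 5.70 in null. Null over WT was 4.24, 5.77 and 4.74, and the genotypes did not overlap.

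Pip differed from the others at 10-min recovery. In steady state its RPKM was 0.604 and 0.490 in WT and 2.45 and 2.31 in null, and at 5-min recovery it was 0.154 and 0.180 in WT and 1.11 and 0.806 in null. At 10-min recovery 2 and 0 reads were found in the WT libraries and 3 and 6 in the null libraries, an RPKM of at most 0.0532. Null over WT was 4.35 in steady state and 5.72 at 5-min recovery. Over the summed reads at 10-min recovery, 2 in WT and 9 in null, the rate ratio was 3.79 with an exact 95% interval of 0.785 to 36.1, which covers counting error only. No difference between genotypes was detectable at this depth in that table.

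**Figure D1:**
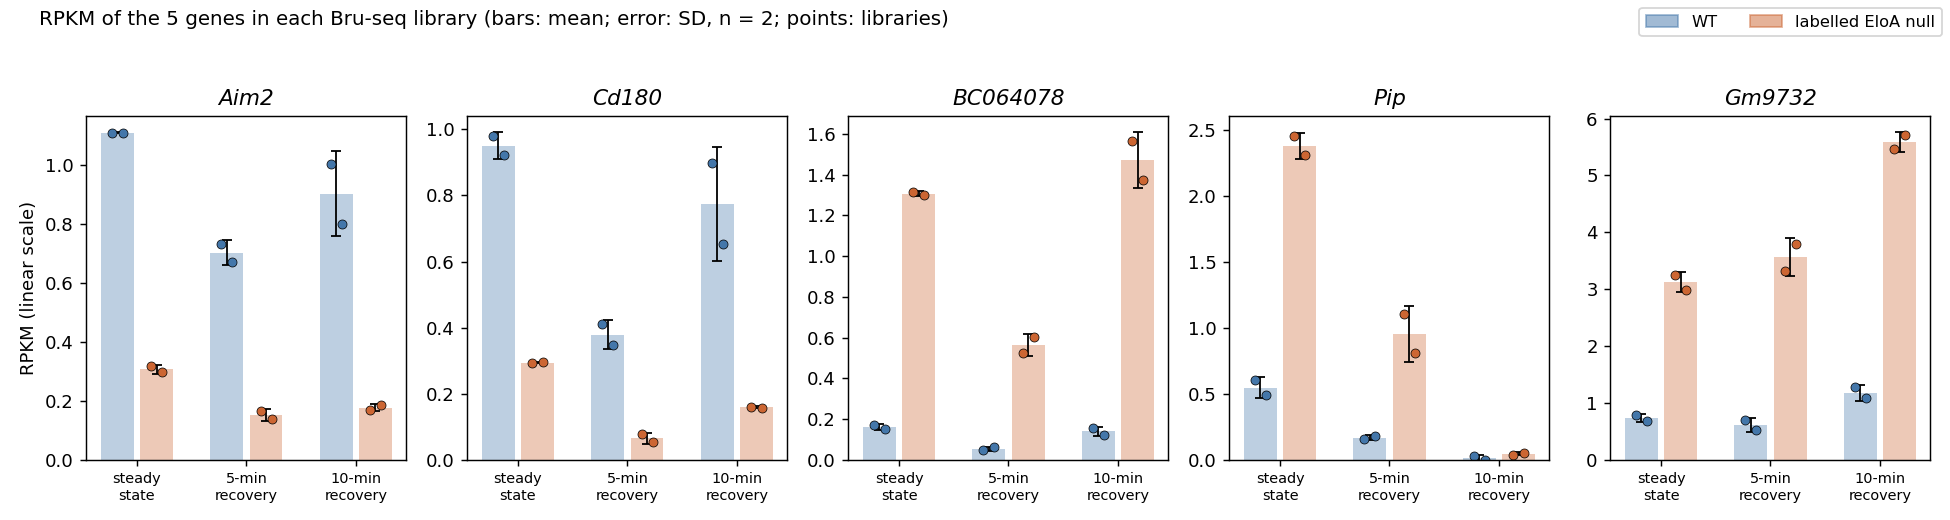
RPKM of each gene (vertical axis, linear, 1 scale per panel) in steady state and at 5-min and 10-min recovery, for WT (blue) and libraries labelled EloA null (orange). Bars are means, error bars SD with n = 2 and points single libraries. Aim2 and Cd180 are lower and BC064078 and Gm9732 higher in null in every table, as is Pip, although at 10-min recovery it is near 0 in both genotypes and rests on few reads.

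Of the 5 genes, 4 exceeded the RPKM limit in each recovery table, and each of these 4 was past 1.5-fold in its steady-state direction. At 5-min recovery these were Aim2 among the lower genes, where 6.72% of 8984 expressed genes were past 1.5-fold, and BC064078, Pip and Gm9732 among the higher genes, where 5.4% were. At 10-min recovery they were Aim2 and Cd180, against a background of 3.01% lower among 10239 genes, and BC064078 and Gm9732, against 9.41% higher. In steady state, where the choice was made, 7.21% of 11345 genes were past 1.5-fold higher and 2.1% lower. Gm9732 passed the limit in both genotypes, whereas Aim2 and Cd180 passed it through WT and BC064078 and Pip, at 5 min, through null, so a difference was built into their passing.

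**Figure D2:**
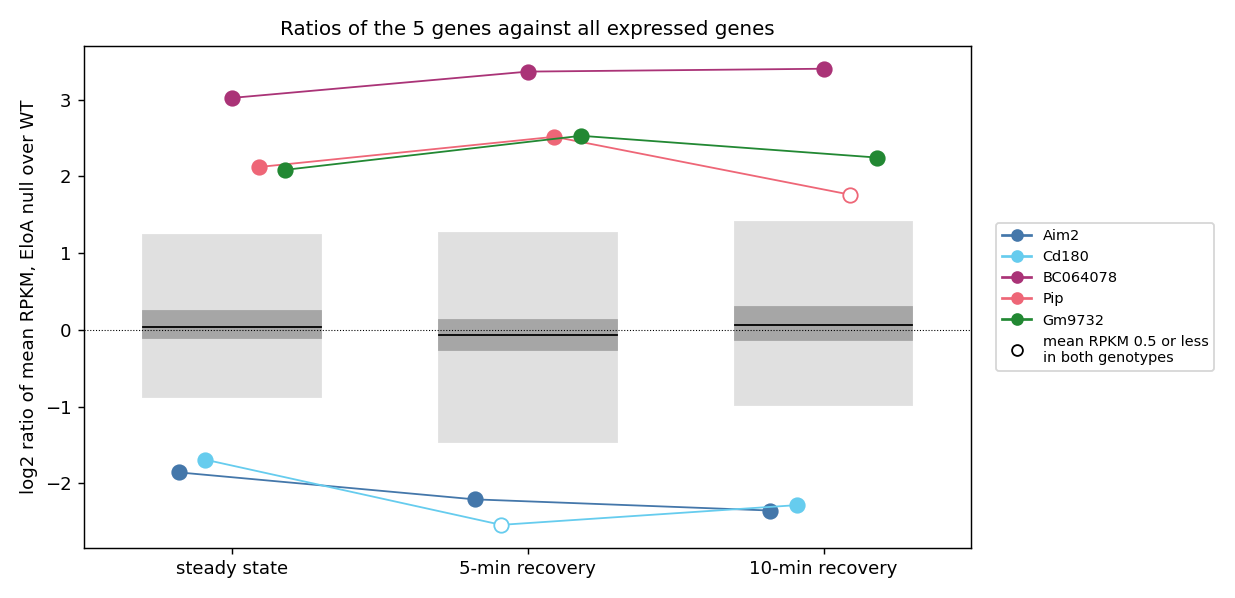
Log2 ratio of mean RPKM, EloA null over WT (vertical axis), of the 5 genes in the 3 conditions. Dark grey boxes span the interquartile range of all expressed genes with their median as a line, light grey boxes the range from percentile 1 to percentile 99, and open circles mark genes at a mean RPKM of 0.5 or less in both genotypes. All points lie outside the light boxes, and the open circles are Cd180 at 5-min and Pip at 10-min recovery.

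The genotype effect was tested with limma on log2(RPKM + 0.1), where a low gene changes by less than its ratio of RPKM. With the 8 recovery libraries in 1 fit, 388 of 10862 genes (3.57%) were called higher and 221 (2.03%) lower in null at an adjusted p under 0.05. All 5 genes were called, in the direction of steady state. Aim2 fell by 1.76 (standard error 0.13, adjusted p = 0.00490) and Cd180 fell by 1.64 (standard error 0.16, adjusted p = 0.0111), as the mean of both recovery times. BC064078 rose by 2.41 (standard error 0.13, adjusted p = 0.00209), Gm9732 by 2.26 (standard error 0.11, adjusted p = 0.00162) and Pip by 1.17 (standard error 0.22, adjusted p = 0.0368). Without the RPKM limit, over 21810 genes, the 5 genes were again called, Pip at an adjusted p of 0.0242.

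The calls of Aim2, BC064078 and Gm9732 held without each library in turn and under every other setting tried. The call of Pip was lost without any 1 of the 8 recovery libraries (adjusted p from 0.0533 to 0.102), and with the replicate number as a block its adjusted p was 0.0702 while the number of genes called went from 609 to 294. The call of Cd180 was lost without null replicate 1 (adjusted p = 0.0542) or null replicate 2 (adjusted p = 0.0544) of 10-min recovery. In single-table limma fits 0 genes (0%) passed the adjusted p at 5-min and at 10-min recovery, where 846 and 2098 genes had an unadjusted p under 0.05. With the replicate number as a block, the 5-min fit called 128 genes, among them Gm9732 (adjusted p = 0.00103) and Pip (adjusted p = 0.0333) but not Aim2 (adjusted p = 0.128) or BC064078 (adjusted p = 0.253), and the 10-min fit called 0. An exact permutation test of 2 against 2 libraries cannot go below p = 0.333, so no such test was run.

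WT and null libraries did not overlap in either recovery table for all 5 genes, and this held for 11.1% of the 10862 genes in the higher and 13.5% in the lower direction. The change of the genotype effect from 5-min to 10-min recovery was called for 6 genes (0.0552%) and for 0 of the 5 members by limma. It was largest for Pip, whose effect was lower at 10 min by 1.60 on the log2 scale (standard error 0.43, unadjusted p = 0.00874, adjusted p = 0.863). At 10 min the RPKM of Pip lay below the 0.1 added before the log, which lowers its effect there. The 10-min minus 5-min value of Pip was -0.91 with 0.01 added and -0.70 with 1 added. For BC064078 the change was 0.62 (standard error 0.26, unadjusted p = 0.0526).

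The 5 genes also differed in how much of their steady-state signal was present in recovery. This was read as a ratio between tables whose scaling to one another is not given. The medians over all expressed genes take no account of gene length. At 10-min recovery the median over 10794 genes expressed in WT in steady state was 1.03. In WT, Aim2, Cd180 and BC064078 were at 0.813, 0.815 and 0.864, and Gm9732 was at 1.60. In null, where the median over 11128 genes was 1.02, Aim2 and Cd180 were at 0.576 and 0.541, BC064078 was at 1.12 and Gm9732 at 1.79. Pip was at 2.46% of its steady-state RPKM in WT and 1.92% in null, and only 87 and 82 of the expressed genes had a smaller ratio. Among genes under 10 kb, as Pip is, the medians at 10-min recovery were 1.30 in WT and 1.33 in null. At 5-min recovery the ratio for Pip had been 0.305 in WT and 0.401 in null. The medians there were 0.631 and 0.560 over all expressed genes, and 0.778 and 0.635 over those under 10 kb. Sval2, the next gene on the same strand, showed the same order, at 4.06% and 0% in WT, and 11.2% and 1.35% in null. These ratios rest on few reads, and they are a description with no test.

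Each gene was next read against the 3 nearest listed genes on each side. Around Aim2, 5 of 6 neighbours had no read in steady state, among them Ifi214, Ifi213 and Ifi209 of the same IFI200 family of DNA-binding proteins. The other, Cadm3, which overlaps only predicted longer models of Aim2, had a mean RPKM of 0.00510 in WT and 0.00331 in null. The signal of Aim2 thus stood alone in its region. Around Cd180, Mast4, a kinase gene 25855 bases away on the other strand, had means of 0.274 in WT and 0.276 in null. Pik3r1, 925330 bases away, had 0.854 and 0.867. The noncoding 1700099I09Rik, 53624 bases away, had 0.858 and 0.972, so these 3 neighbours had ratios near 1. Gm30551, a noncoding gene 884764 bases away, was higher in null in steady state. Its RPKM there was 0.0324 and 0.0336 in WT and 0.0473 and 0.0460 in null. In recovery Gm30551 had means of 0.0494 in WT and 0.0639 in null at 5 min, and 0.0271 and 0.0262 at 10 min. The genotypes overlapped at both recovery times. In recovery, where Pik3r1 was under the RPKM limit, its mean was 0.240 in WT and 0.185 in null at 5 min and 0.116 and 0.0887 at 10 min.

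The genes higher in null cells had neighbours of which some were higher as well. Upstream of BC064078, Clec2g had mean RPKM of 0.137 in WT and 0.304 in null in steady state, and the noncoding Gm15987 had 0.224 and 0.455. In the recovery fit Gm15987 rose by 1.11 (standard error 0.15, adjusted p = 0.0195), and Clec2g was under the limit with 81 reads in WT and 353 in null at 10-min recovery. Downstream, Clec2f had 0.174 and 0.252 in steady state. Further out, Klrb1f had 0.00775 and 0.0588, from 4 and 29 reads, and Clec2e had 0.00920 and 0.00524, from 3 and 2 reads. In recovery Klrb1f had 0.0725 in WT and 0.136 in null at 5 min, and 0.0147 and 0.0220 at 10 min. Its genotypes overlapped at both recovery times. Mir7649, a short gene with 2 reads or fewer in each library, was listed at 0 in WT and had 0.923 in null in steady state.

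Beside Pip, Sval2, encoding a secreted protein of the same family, lies 8242 bases downstream on the same strand. Its RPKM in steady state was 0.600 and 0.494 in WT and 1.79 and 2.07 in null. At 5-min recovery it had 0 and 2 reads in WT and 8 and 15 in null. Sval1 and Sval3, further along, were listed at 0 in steady state in both genotypes. On the other side Olfr459, an olfactory receptor gene 75252 bases away, had 0.0411 in WT and 0.588 in null. These means rest on 1 read in each WT library and on 10 and 19 reads in null.

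Beside Gm9732, 1700001F09Rik had steady-state means of 1.04 in WT and 2.78 in null, and in the recovery fit it rose by 1.71 (standard error 0.11, adjusted p = 0.00440). Gm10375 had 0.0478 and 0.354 in steady state and did not pass the test (adjusted p = 0.117). The span of Gm9732 has 40 alignments elsewhere on chromosome 14 at 95% identity or more, the closest at 97.9%, which together cover 100% of it. The other 4 genes had 0 such alignments. Only uniquely aligned reads were kept, so the reads given to Gm9732 are uncertain: they could come in part from its copies.

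**Figure D3:**
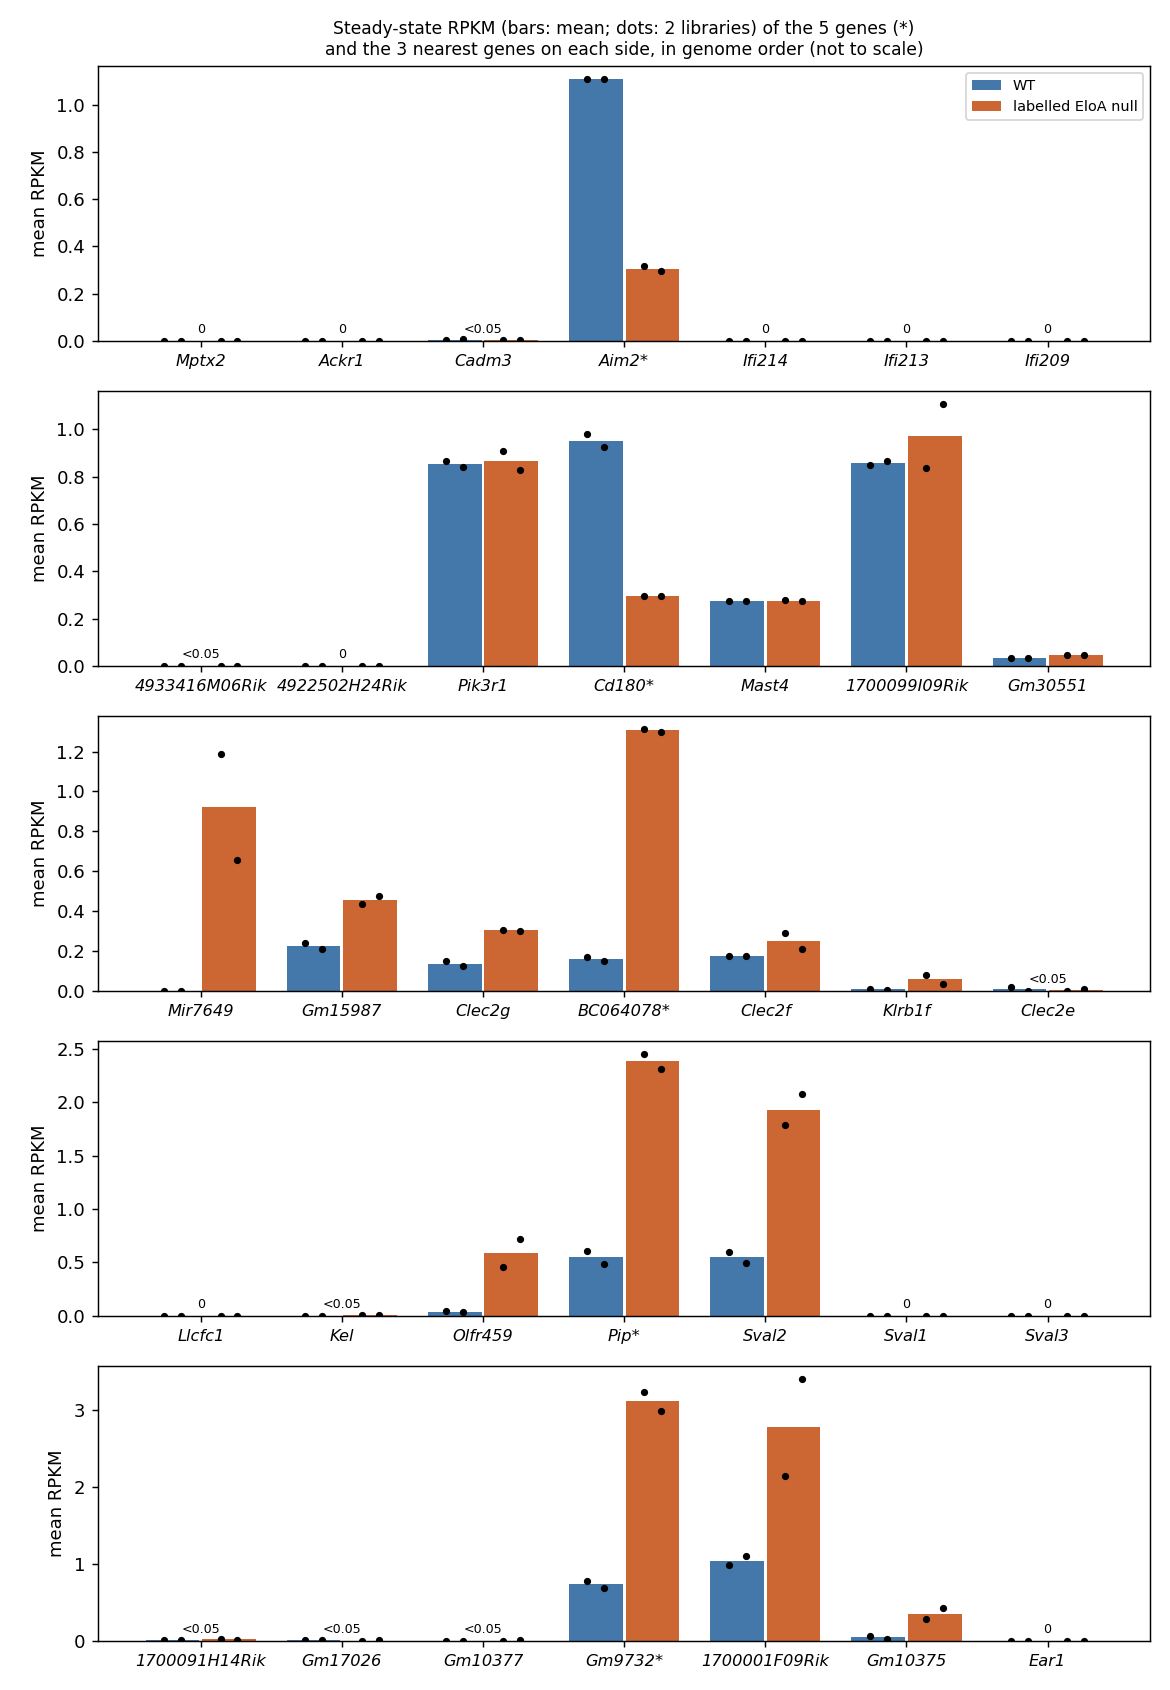
Steady-state RPKM (vertical axis, linear, 1 scale per panel) of each of the 5 genes (starred) and the 3 nearest listed genes on each side, in genome order and not to scale, for WT (blue) and libraries labelled EloA null (orange). Bars are means and dots the 2 libraries. Aim2 stands alone, Pik3r1, Mast4 and 1700099I09Rik around Cd180 are at like levels in both genotypes, and Sval2 beside Pip and 1700001F09Rik beside Gm9732 are higher in null.

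Gm9732 lies on the chromosome that stood apart from the rest. Over the expressed genes of chromosome 14 the median log2 ratio of mean RPKM, null over WT, was 0.52 in steady state, 0.48 at 5-min and 0.54 at 10-min recovery. The medians of the other 19 chromosomes lay between -0.03 and 0.14 in steady state, between -0.15 and -0.02 at 5-min and between -0.04 and 0.17 at 10-min recovery. In the recovery fit 155 of 406 tested genes of chromosome 14 (38.2%) were called higher, against 2.23% of the 10456 other genes. Relative to the median of its chromosome Gm9732 was 2.95-fold higher in null in steady state, 4.13-fold at 5-min and 3.27-fold at 10-min recovery. It was above 413 of 415 other expressed genes of the chromosome in steady state. The part of the chromosome-wide shift in the value of Gm9732 was not tested. For Pip and BC064078 on chromosome 6, Aim2 on chromosome 1 and Cd180 on chromosome 13, the chromosome medians lay between -0.03 and 0.05 in steady state.

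**Figure D4:**
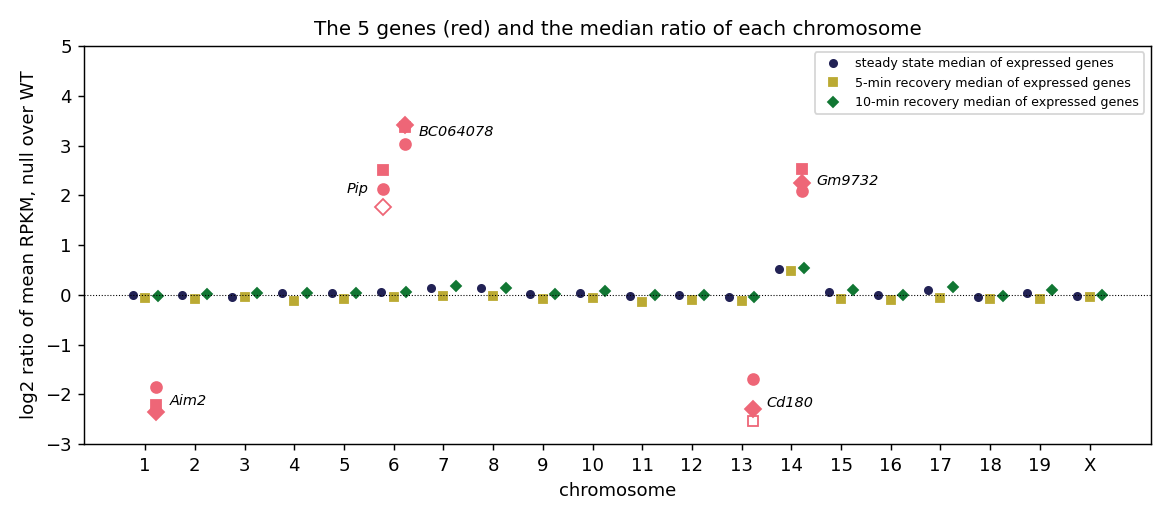
Log2 ratio of mean RPKM, EloA null over WT (vertical axis), by chromosome (horizontal axis). Blue, yellow and green symbols are the medians of the expressed genes of each chromosome in the 3 conditions, and red symbols the 5 genes, open where the mean RPKM was 0.5 or less in both genotypes (circles, steady state, squares, 5-min and diamonds, 10-min recovery). The medians of chromosome 14 sit near 0.5 and all others near 0, and Gm9732 lies far above its chromosome.

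The partners and pathways of these genes were then examined by lists. Of 19 genes of the AIM2 inflammasome and related inflammasomes, 2 were above the limit in steady state, Pycard and Nek7, and 0 of the 2 tested were called in the recovery fit. Pycard had a mean RPKM of 7.22 in WT and 5.33 in null in steady state, from 138 and 102 reads. In recovery it had 1.49 in WT and 2.02 in null at 5 min, and 1.84 and 1.92 at 10 min. Casp1 had 4 reads over the 12 libraries. The 11 measured genes of the IFI200 family other than Aim2 summed to an RPKM of 0.0241 to 0.0250 in WT and 0.0168 to 0.0264 in null, and 0 were above the limit. Of 12 measured genes of cytosolic nucleic acid sensing, 6 were tested in recovery and 0 called, with Mavs, the mitochondrial adaptor of RNA sensing, at steady-state means of 2.58 and 3.08. No gene of these 3 lists was called in the recovery fit, and 0 of the IFI200 genes had the RPKM to be tested.

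Of 24 toll-like receptor and CD180 partner genes, 6 were tested in recovery and 1 was called. This was Traf6, a ubiquitin ligase that relays toll-like receptor signals, which fell by 0.78 (standard error 0.07, adjusted p = 0.00740). Ly86, the partner of Cd180, did not exceed an RPKM of 0.00238 in any library. Of 20 interferon-stimulated genes, 6 were tested and 1 was called, Irf9, a subunit of the interferon-activated factor ISGF3, which rose by 0.74 (standard error 0.14, adjusted p = 0.0402) and lies on chromosome 14. The median log2 change of the list in recovery was 0.12, beside -0.0040 over all 10862 genes. Summed RPKM of the 20 genes was 7.43 to 7.92 in WT and 10.7 to 11.3 in null in steady state. It was 2.78 to 3.75 and 3.88 to 5.62 at 5-min, and 6.30 to 7.86 and 9.57 to 10.0 at 10-min recovery. These sums were higher in null without overlap in all 3 tables, and they were not tested. In steady state 2 of the 7 above the limit were past 1.5-fold higher and 0 lower. Of 14 secretory gland and prolactin-response genes, Sval2 was the 1 above the limit in steady state and 0 were tested in recovery. The 18 measured lectin-like and Klrb1 genes had summed RPKM of 0.561 to 0.675 in WT and 0.904 to 1.01 in null in steady state, with 0 above the limit.

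Markers of other cells were read by summed RPKM. Ptprc, which encodes CD45 of leukocytes, reached at most 0.00368 RPKM in any library. The 6 B cell genes, 0 of them above the limit, summed to 0.533 to 0.703 in WT and 0.440 to 0.627 in null in steady state, to 0.622 to 1.05 in WT and 0.294 to 0.533 in null at 5-min recovery, and to 0.240 to 0.414 in WT and 0.302 to 0.435 in null at 10-min recovery. They were thus lower in null without overlap at 5 min and overlapped in the other tables. The fibroblast, leukocyte and myeloid lists below were also lower in null without overlap at 5 min. With 2 libraries in each group, lack of overlap is a description with no test. The median log2 ratio of mean RPKM over all 8984 expressed genes was -0.06 at 5 min. Of 10862 single genes, 13.5% were lower in null without overlap in both recovery tables. The 11 feeder fibroblast genes summed to 1.58 to 1.93 in WT and 1.36 to 1.60 in null in steady state, to 1.63 to 1.87 and 0.958 to 1.35 at 5-min recovery, and to 2.31 to 2.95 and 1.69 to 2.11 at 10-min recovery, lower in null without overlap in both recovery tables. The 5 general leukocyte genes summed to 3.37 to 3.68 in WT and 4.05 to 4.80 in null in steady state, nearly all of it Laptm5, and to 2.29 to 2.63 and 2.12 to 2.21 at 5-min and 2.88 to 3.43 and 3.81 to 4.41 at 10-min recovery. They were higher in null in steady state and at 10 min and lower at 5 min, without overlap. The 7 myeloid genes summed to 5.86 to 6.30 in WT and 5.62 to 7.34 in null in steady state, nearly all of it Cd68, with Csf1r at means of 0.0464 and 0.0512, and to 6.44 in both WT libraries and 5.43 to 6.06 in null at 5-min and 7.74 to 9.49 and 6.70 to 8.08 at 10-min recovery. In the recovery fit 0 genes of these 4 lists were called, and 1 gene each of the fibroblast, leukocyte and myeloid lists was above the limit and tested. The part of these differences in the members' values was not tested. The 8 pluripotency genes were all above the limit in steady state, at sums of 165 to 170 in WT and 165 to 182 in null. At 5-min recovery they summed to 201 to 236 in WT and 149 to 209 in null. At 10-min recovery they summed to 241 to 270 in WT and 233 to 238 in null, lower in null without overlap. In the recovery fit 0 of these 8 genes were called.

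Genes with the pattern most like each member were found by Pearson's r over the 12 libraries, after removing the mean of each table, among 8213 genes above the limit in all 3 tables. The points share their libraries and their genotype, and r is a description only. Lama1 was the closest to both Aim2 (r = 0.994) and Cd180 (r = 0.994), followed by Ttc19 and then Dhx40 for Aim2 and by Dhx40 and then Ttc19 for Cd180. In the recovery fit Lama1, which encodes a laminin chain of the basement membrane, fell by 0.66 (adjusted p = 0.0154) and Ttc19 fell by 0.65 (adjusted p = 0.0154). Closest to BC064078 were Tsc22d1 (r = 0.995), Rcan3 (r = 0.989) and Dock5 (r = 0.989), of which Tsc22d1 and Dock5 lie on chromosome 14. Closest to Gm9732 were 4930452B06Rik (r = 0.996), Dock5 (r = 0.996) and Kctd6 (r = 0.992), all on chromosome 14. Pip had the least close matches, led by Mir7682 (r = 0.954), 1700086O06Rik (r = 0.952) and Tspan31 (r = 0.944). Between the members, r was 0.998 for Aim2 with Cd180 and 0.982 for BC064078 with Gm9732.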

How the data were processed

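Bru-seq libraries of WT and EloA null mESC were analysed, 4 in each of 3 tables, and 16 other libraries of the study were not used here. The authors aligned paired-end reads to mm10 (GRCm38) with Bowtie2 2.3.4.3, kept uniquely aligned reads, counted RefSeq genes with featureCounts 1.6.1 and deposited RPKM calculated with edgeR. The scaling between tables is not given in the sources used here. In each library 96.1% to 96.5% of checked genes gave whole reads (within 0.05) when length was the summed introns, although the study describes counting over whole genes. This gave the read counts and library sizes, which limit the precision of genes with few reads. The 2 libraries of a group differed by more than sampling noise (chi-square per degree of freedom 7.99 to 17.9). The study describes them as independent experiments without saying more of the cultures, so p-values measure the spread between these libraries, which may be technical.

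Genes with a mean RPKM above 0.5 in WT or null were tested with limma 3.58.1 (R 4.3.3, trended variance) on log2(RPKM + 0.1), with Benjamini-Hochberg adjustment over all genes tested. The replicate number was not a term of this fit. Same-numbered WT and null libraries deviated together only weakly (r over genes of 0.101, 0.119 and 0.103 in the 3 tables). Fits with the number as a block are given where they change a call. Member spans were aligned to GRCm38 with minimap2 2.31, and alignments of at least 1000 bases at 95% identity elsewhere were counted as copies. By symbol or older symbol, 24418 and 423 genes matched RefSeq.

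Named genes are the members, Eloa, the 3 nearest genes on each side, the 3 genes most like each member, the 3 highest of each list and any called, and the genes ranked next to the members in steady state. The exceptions, Adamts3 and Gm5860, and Ly86, Ptprc and Casp1 as defining markers, were chosen after values were seen. The members and lists were chosen with earlier results of these data known. Alternatives were other pseudocounts, filters, scalings, variance estimates, a replicate block and leaving out each library.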

Additional observations from a re-analysis of the deposited data

How the results depend on the processing

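The 4 members past 1.5-fold in each recovery table were also 4 with a 2-fold limit, median centring, quantile normalization and without any 1 library, and were 5 of 5 without the RPKM limit. Members called over both recovery times were 3 of the 3 testable when the limit had to be passed in both tables, 4 with a pseudocount of 0.01 (Pip adjusted p = 0.0791) or quantile normalization (Pip adjusted p = 0.0904), and 3 to 4 when 1 library was left out. With the replicate block 4 members were called, as were 294 genes over both times, 0 genes for the difference between times and 128 genes at 5-min recovery. Genes called over both times numbered 1452 with all 12 libraries in the fit and 31 to 303 without 1 library. Genes called for the difference between times numbered 32 with a pseudocount of 0.01, 43 without the RPKM limit, 10 with all 12 libraries, 12 with robust shrinkage and 2 to 7 without 1 library. In single tables, all 12 libraries in the fit gave 132 calls in steady state, 532 at 5-min and 264 at 10-min recovery. Leaving out 1 library gave 0 to 60 calls at 5-min and 0 to 33 at 10-min recovery, and the 10-min fit gave 5 with a pseudocount of 1, 12 with median centring and 6 with quantile normalization. In fits that leave a group with 1 library, that library is assumed to vary like the other groups. No member changed direction in any setting over both recovery times, or in a single table where it passed the limit. The 10-min minus 5-min difference, called for 0 members, did change sign for Cd180 and Gm9732. It went from -0.20 to 0.19 for Cd180 with a pseudocount of 0.01, and from -0.20 to 0.10 for Gm9732 with a pseudocount of 1. The cause of the changed counts was not tested.

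Depth limits Pip at 10-min recovery and Cd180 at 5-min recovery, and the 5-min libraries are the shallowest.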
